A study of Mus musculus with 106 samples.

Results

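*Gad1*, *Gad2*, *Slc32a1* and *Abat* are 4 of the 55401 mouse genes counted in RiboTag and total RNA libraries from brains of Huntington's disease (HD) model mice. They were chosen by what their products do in the handling of GABA, under the working name GABA synthesis, packaging and uptake. Uptake in that name goes too far, since no gene of the 4 encodes a transporter that takes up GABA from outside the cell. *Gad1* and *Gad2* make GABA, *Slc32a1* packages it into vesicles and *Abat* breaks it down. Each of the 4 passed the filter on low counts in every comparison described here.

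The HD mice were Hdh Q7/Q200, carrying an expanded CAG tract in 1 *Htt* allele, and the controls were Hdh Q7/Q7. Mice of the 3 lines described in the published article were about 9 months old, on a 129S4 background, and heterozygous both for a Cre driver and for the RiboTag allele of *Rpl22*, which adds an HA tag to ribosomes in cells that express Cre. An immunoprecipitate (IP) library holds mRNA bound to the tagged ribosomes of the targeted neurons, and a total RNA library, the input, holds mRNA of all cells of the dissected tissue. The drivers of those 3 lines were Gad2-IRES-Cre, PV-IRES-Cre and vGluT2-IRES-Cre. An SST line appears in the labels and not in the article, so its age, background and breeding are not known here. In that line 3 of 5 control IPs and 2 of 4 control total RNA libraries come from mice of another code series (Z) than all HD mice (BR), so genotype and mouse series cannot be fully told apart. The Cre of the first line sits in *Gad2* itself, and Cre line and breeding colony cannot be told apart. Cerebrum was taken without the olfactory bulb. Each PV+ IP was pooled from duplicate IPs of a mouse.

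Of the 106 libraries from 45 mice, 67 were IPs and 39 were total RNA. Control and HD IPs numbered 6 and 6 for cerebral Gad2+, 6 and 5 for cerebral PV+, 5 and 4 for cerebral SST+, 6 and 6 for cerebral vGluT2+, 6 and 6 for cerebellar Gad2+ and 5 and 6 for cerebellar vGluT2+ neurons. Total RNA came from 3 control and 3 HD mice of each line and region, with 4 and 3 for the SST line and 4 and 4 for the cerebellum of the vGluT2 line. IP libraries held 23256772 to 107753586 counts on mouse genes (median 35874511) and total RNA libraries 21905221 to 62160033 (median 35858940). Median depth per group ran from 29017527 in HD cerebellar Gad2 total RNA to 45464390 in HD cerebellar vGluT2 total RNA. The fewest counts of a member in any library were 215, for *Slc32a1* in a control cerebral vGluT2+ IP.

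GABA is the main inhibitory transmitter of the adult brain. It is made from glutamate by glutamate decarboxylase with pyridoxal phosphate as cofactor, through an isoform present throughout the cytosol (*Gad1*) and an isoform tied to membranes and synaptic vesicles (*Gad2*), loaded into vesicles by a transporter shared with glycine (*Slc32a1*), and degraded in mitochondria by a transaminase (*Abat*) found in neurons and in glia. Striatal projection neurons and Purkinje cells, both studied in Huntington's disease, use GABA as their transmitter, whereas cerebellar granule cells release glutamate.

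In GENCODE M21 (GRCm38) all 4 genes lie on the + strand: *Gad1* (ENSMUSG00000070880.10) at chr2:70553072-70602014, *Gad2* (ENSMUSG00000026787.3) at chr2:22622205-22693874, *Slc32a1* (ENSMUSG00000037771.11) at chr2:158610767-158615748 and *Abat* (ENSMUSG00000057880.12) at chr16:8513429-8621568. The first 3 thus share chromosome 2. The longest annotated transcripts measure 3601, 5744, 2797 and 4636 bp in the same order. *Slc32a1* shares 697 bp of exon with an antisense gene, *Gm14205*, whose mean count over all libraries was 9.84. The libraries were stranded, but whether reads were counted by strand is not stated. Levels are given as CPM, counts scaled to the library's size by the trimmed mean of M-values (TMM CPM), so that a gene's value is its share of the effective library size. Differences are log2 differences fitted by the quasi-likelihood test of edgeR to protein-coding genes whose mean count exceeded 10, adjusted after Benjamini and Hochberg over all genes tested, and a gene is called where its adjusted p is 0.05 or less.

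Markers were checked against the cell type each IP targets, by the log2 difference from total RNA of the same line. *Pvalb* differed by 2.71 in PV+ IPs, *Sst* by 3.16 in SST+ IPs, and *Slc17a6*, the vGluT2 gene, by 1.37 in cerebral and 1.5 in cerebellar vGluT2+ IPs. Of GABAergic markers 7 of 7, and of striatal projection neuron markers 8 of 8, were called higher than in total RNA in cerebral Gad2+ IPs, and of glutamatergic markers 5 of 5 in cerebral vGluT2+ IPs. In cerebellar Gad2+ IPs 5 of 5 Purkinje cell and 4 of 4 molecular layer and Golgi interneuron markers were called higher, and in cerebellar vGluT2+ IPs 5 of 5 granule cell markers. In SST+ IPs 1 of 7 astrocyte and 2 of 5 oligodendrocyte markers were called higher, against 32.2% of all genes tested. The summed level of the astrocyte list there had a median of 2098 CPM in control IPs and 1880 CPM in control total RNA. In the PV line that sum had a median of 1393 CPM in control IPs and 2078 CPM in control total RNA. *Slc1a2*, the most abundant of the list, averaged 1078 CPM in those PV+ IPs and 769 CPM in that total RNA.

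The first question is whether each targeted cell type carries more or less of these mRNAs than its tissue as a whole. In cerebral Gad2+ IPs 3 of 4 members were called, each higher than in total RNA, where 46.9% of 14723 genes tested were called and 21.5% were called higher. All 4 were called higher in cerebral PV+ IPs, against 71.6% of 14791 genes called and 35.7% called higher. All 4 were called higher in cerebral SST+ IPs, against 63.4% of 14865 genes called and 32.2% called higher. All 4 were called lower in cerebral vGluT2+ IPs, against 52.9% of 14729 genes called and 28.2% called lower. All 4 were called higher in cerebellar Gad2+ IPs, against 60.5% of 14229 genes called and 27.8% called higher. All 4 were called lower in cerebellar vGluT2+ IPs, against 65.5% of 14230 genes called and 31.8% called lower. DESeq2 made the same calls of members in all 6 comparisons. The Gad2 driver tags ribosomes in cells that express *Gad2*, so a higher *Gad2* level in both kinds of Gad2+ IP follows from the design. The published article used *Gad2* and *Slc32a1* among its GABAergic markers of cerebral IPs. These counts of members are thus given as a description. A difference between IP and total RNA mixes the share of a cell type in the tissue with the RNA each cell holds, and between HD and control tissue fewer cells of a type and less RNA per cell cannot be told apart.

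*Gad1*, the cytosolic glutamate decarboxylase, ranged over 1090.2 to 1717 CPM (median 1387, n = 12) in cerebral Gad2+ IPs and over 266 to 349 CPM (median 317, n = 6) in total RNA of that line. In PV+ IPs the range was 1401 to 2304 CPM (median 1770.3, n = 11), against 208 to 345 CPM (median 305, n = 6) in total RNA. Purkinje cell markers in those IPs summed to 603 to 1911 CPM (median 755) in controls and 585 to 4308 CPM (median 632) in HD mice. The part of these markers in the *Gad1* levels was not tested. SST+ IPs held 393 to 876 CPM (median 666, n = 9), and their total RNA 244 to 356 CPM (median 328, n = 7). Thus 12 of 12 cerebral Gad2+ IPs lay above the highest total RNA library, with 11 of 11 for PV+ and 9 of 9 for SST+. The fitted log2 difference of *Gad1* was 2.13 (SE 0.121, adjusted p = 2.56e-10) for cerebral Gad2+, 2.73 (SE 0.144, adjusted p = 2.36e-11) for PV+ and 1.21 (SE 0.151, adjusted p = 2.14e-06) for SST+ IPs by edgeR's quasi-likelihood test. Cerebellar Gad2+ IPs held 1042 to 2441 CPM (median 1881, n = 12) of *Gad1*, against 364 to 513 CPM (median 471, n = 6) in total RNA, and 12 of 12 IPs lay above all total RNA. In the vGluT2+ IPs the order was the opposite. Cerebral vGluT2+ IPs ran over 28.8 to 74.1 CPM (median 42.2, n = 12) and their total RNA over 272 to 431 CPM (median 320.3, n = 6), and cerebellar vGluT2+ IPs over 58.2 to 240.0 CPM (median 115, n = 11) against 368 to 564 CPM (median 455, n = 8). All 12 cerebral and all 11 cerebellar vGluT2+ IPs lay below their total RNA. By the same edgeR test the log2 difference of *Gad1* was 1.97 (SE 0.161, adjusted p = 3.18e-09) in cerebellar Gad2+, −3.00 (SE 0.187, adjusted p = 1.42e-10) in cerebral vGluT2+ and −1.83 (SE 0.184, adjusted p = 2.71e-08) in cerebellar vGluT2+ IPs.

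*Gad2*, the membrane-bound glutamate decarboxylase, ranged over 207 to 494 CPM (median 395, n = 12) in cerebral Gad2+ IPs and over 70.5 to 141 CPM (median 85.0, n = 6) in total RNA of that line. In PV+ IPs the range was 204 to 343 CPM (median 271, n = 11), against 56.3 to 124 CPM (median 103, n = 6) in total RNA. SST+ IPs held 244 to 397 CPM (median 324, n = 9), and their total RNA 60.1 to 141 CPM (median 106, n = 7). Thus 12 of 12 cerebral Gad2+ IPs lay above the highest total RNA library, with 11 of 11 for PV+ and 9 of 9 for SST+. The fitted log2 difference of *Gad2* was 1.82 (SE 0.243, adjusted p = 4.8e-06) for cerebral Gad2+, 1.65 (SE 0.187, adjusted p = 4.21e-07) for PV+ and 1.80 (SE 0.155, adjusted p = 3.49e-08) for SST+ IPs by edgeR's quasi-likelihood test. Cerebellar Gad2+ IPs held 148 to 343 CPM (median 278, n = 12) of *Gad2*, against 48.8 to 98.5 CPM (median 68.7, n = 6) in total RNA, and 12 of 12 IPs lay above all total RNA. In the vGluT2+ IPs the order was the opposite. Cerebral vGluT2+ IPs ran over 7.08 to 31.1 CPM (median 18.0, n = 12) and their total RNA over 64.3 to 196 CPM (median 115, n = 6), and cerebellar vGluT2+ IPs over 7.29 to 32.6 CPM (median 16.3, n = 11) against 41.2 to 149 CPM (median 74.8, n = 8). All 12 cerebral and all 11 cerebellar vGluT2+ IPs lay below their total RNA. By the same edgeR test the log2 difference of *Gad2* was 1.82 (SE 0.191, adjusted p = 1e-07) in cerebellar Gad2+, −2.98 (SE 0.284, adjusted p = 6.27e-08) in cerebral vGluT2+ and −2.09 (SE 0.261, adjusted p = 6e-07) in cerebellar vGluT2+ IPs.

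*Slc32a1*, the vesicular transporter, ranged over 616 to 1069 CPM (median 852, n = 12) in cerebral Gad2+ IPs and over 124 to 249.6 CPM (median 212, n = 6) in total RNA of that line. In PV+ IPs the range was 461 to 680.2 CPM (median 546, n = 11), against 193 to 323 CPM (median 222, n = 6) in total RNA. SST+ IPs held 192 to 404 CPM (median 285, n = 9), and their total RNA 184 to 261 CPM (median 231, n = 7). Thus 12 of 12 cerebral Gad2+ IPs lay above the highest total RNA library, with 11 of 11 for PV+ and 5 of 9 for SST+. The fitted log2 difference of *Slc32a1* was 2.10 (SE 0.157, adjusted p = 4.54e-09) for cerebral Gad2+, 1.30 (SE 0.0975, adjusted p = 2.09e-09) for PV+ and 0.46 (SE 0.142, adjusted p = 0.00822) for SST+ IPs by edgeR's quasi-likelihood test. With the mouse as a block, which pairs IP and total RNA of the same animal, *Slc32a1* in SST+ IPs fell to 0.27 (adjusted p = 0.07 by the same edgeR test) and lost its call, as it did without the SST controls coded Z, an alternative chosen after the data had been seen (0.29, adjusted p = 0.103 by that edgeR test). Cerebellar Gad2+ IPs held 627 to 999 CPM (median 757, n = 12) of *Slc32a1*, against 141 to 248 CPM (median 212, n = 6) in total RNA, and 12 of 12 IPs lay above all total RNA. In the vGluT2+ IPs the order was the opposite. Cerebral vGluT2+ IPs ran over 7.67 to 27.5 CPM (median 9.91, n = 12) and their total RNA over 162 to 287 CPM (median 219.8, n = 6), and cerebellar vGluT2+ IPs over 14.8 to 28.5 CPM (median 19.3, n = 11) against 155 to 259 CPM (median 221, n = 8). All 12 cerebral and all 11 cerebellar vGluT2+ IPs lay below their total RNA. By the same edgeR test the log2 difference of *Slc32a1* was 1.88 (SE 0.124, adjusted p = 1.54e-10) in cerebellar Gad2+, −4.13 (SE 0.255, adjusted p = 1.17e-10) in cerebral vGluT2+ and −3.42 (SE 0.113, adjusted p = 6.63e-15) in cerebellar vGluT2+ IPs.

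*Abat*, the transaminase that degrades GABA, ranged over 307 to 407 CPM (median 387, n = 12) in cerebral Gad2+ IPs and over 296 to 332 CPM (median 303, n = 6) in total RNA of that line. In PV+ IPs the range was 486 to 605 CPM (median 533, n = 11), against 211 to 341 CPM (median 330.5, n = 6) in total RNA. SST+ IPs held 385 to 555 CPM (median 478, n = 9), and their total RNA 285 to 374 CPM (median 341, n = 7). Thus 7 of 12 cerebral Gad2+ IPs lay above the highest total RNA library, with 11 of 11 for PV+ and 9 of 9 for SST+. The fitted log2 difference of *Abat* was 0.21 (SE 0.0957, adjusted p = 0.0805) for cerebral Gad2+, 0.92 (SE 0.0966, adjusted p = 1.56e-07) for PV+ and 0.58 (SE 0.101, adjusted p = 7.09e-05) for SST+ IPs by edgeR's quasi-likelihood test. *Abat* missed the threshold in cerebral Gad2+ IPs, and was called there when control or HD replicate 6 of the IPs was left out (0.24 in both, adjusted p down to 0.0492 by the same edgeR test). It was also called there without the filter on low counts (0.30, adjusted p = 0.0185 by that edgeR test), against total RNA of all cerebral lines (0.17, adjusted p = 0.0207) and with a covariate for library GC content, chosen after the data had been seen (0.21, adjusted p = 0.0367). That covariate is centred within IPs and within total RNA, so it cannot adjust for a GC difference between them. Cerebellar Gad2+ IPs held 300.0 to 604 CPM (median 489.7, n = 12) of *Abat*, against 274 to 362 CPM (median 329.9, n = 6) in total RNA, and 9 of 12 IPs lay above all total RNA. In the vGluT2+ IPs the order was the opposite. Cerebral vGluT2+ IPs ran over 78.3 to 130.4 CPM (median 107, n = 12) and their total RNA over 274 to 358 CPM (median 331, n = 6), and cerebellar vGluT2+ IPs over 131 to 234 CPM (median 175, n = 11) against 293 to 438 CPM (median 375, n = 8). All 12 cerebral and all 11 cerebellar vGluT2+ IPs lay below their total RNA. By the same edgeR test the log2 difference of *Abat* was 0.44 (SE 0.145, adjusted p = 0.0129) in cerebellar Gad2+, −1.72 (SE 0.105, adjusted p = 1.03e-10) in cerebral vGluT2+ and −1.13 (SE 0.118, adjusted p = 4.78e-08) in cerebellar vGluT2+ IPs.

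**Figure D1:**
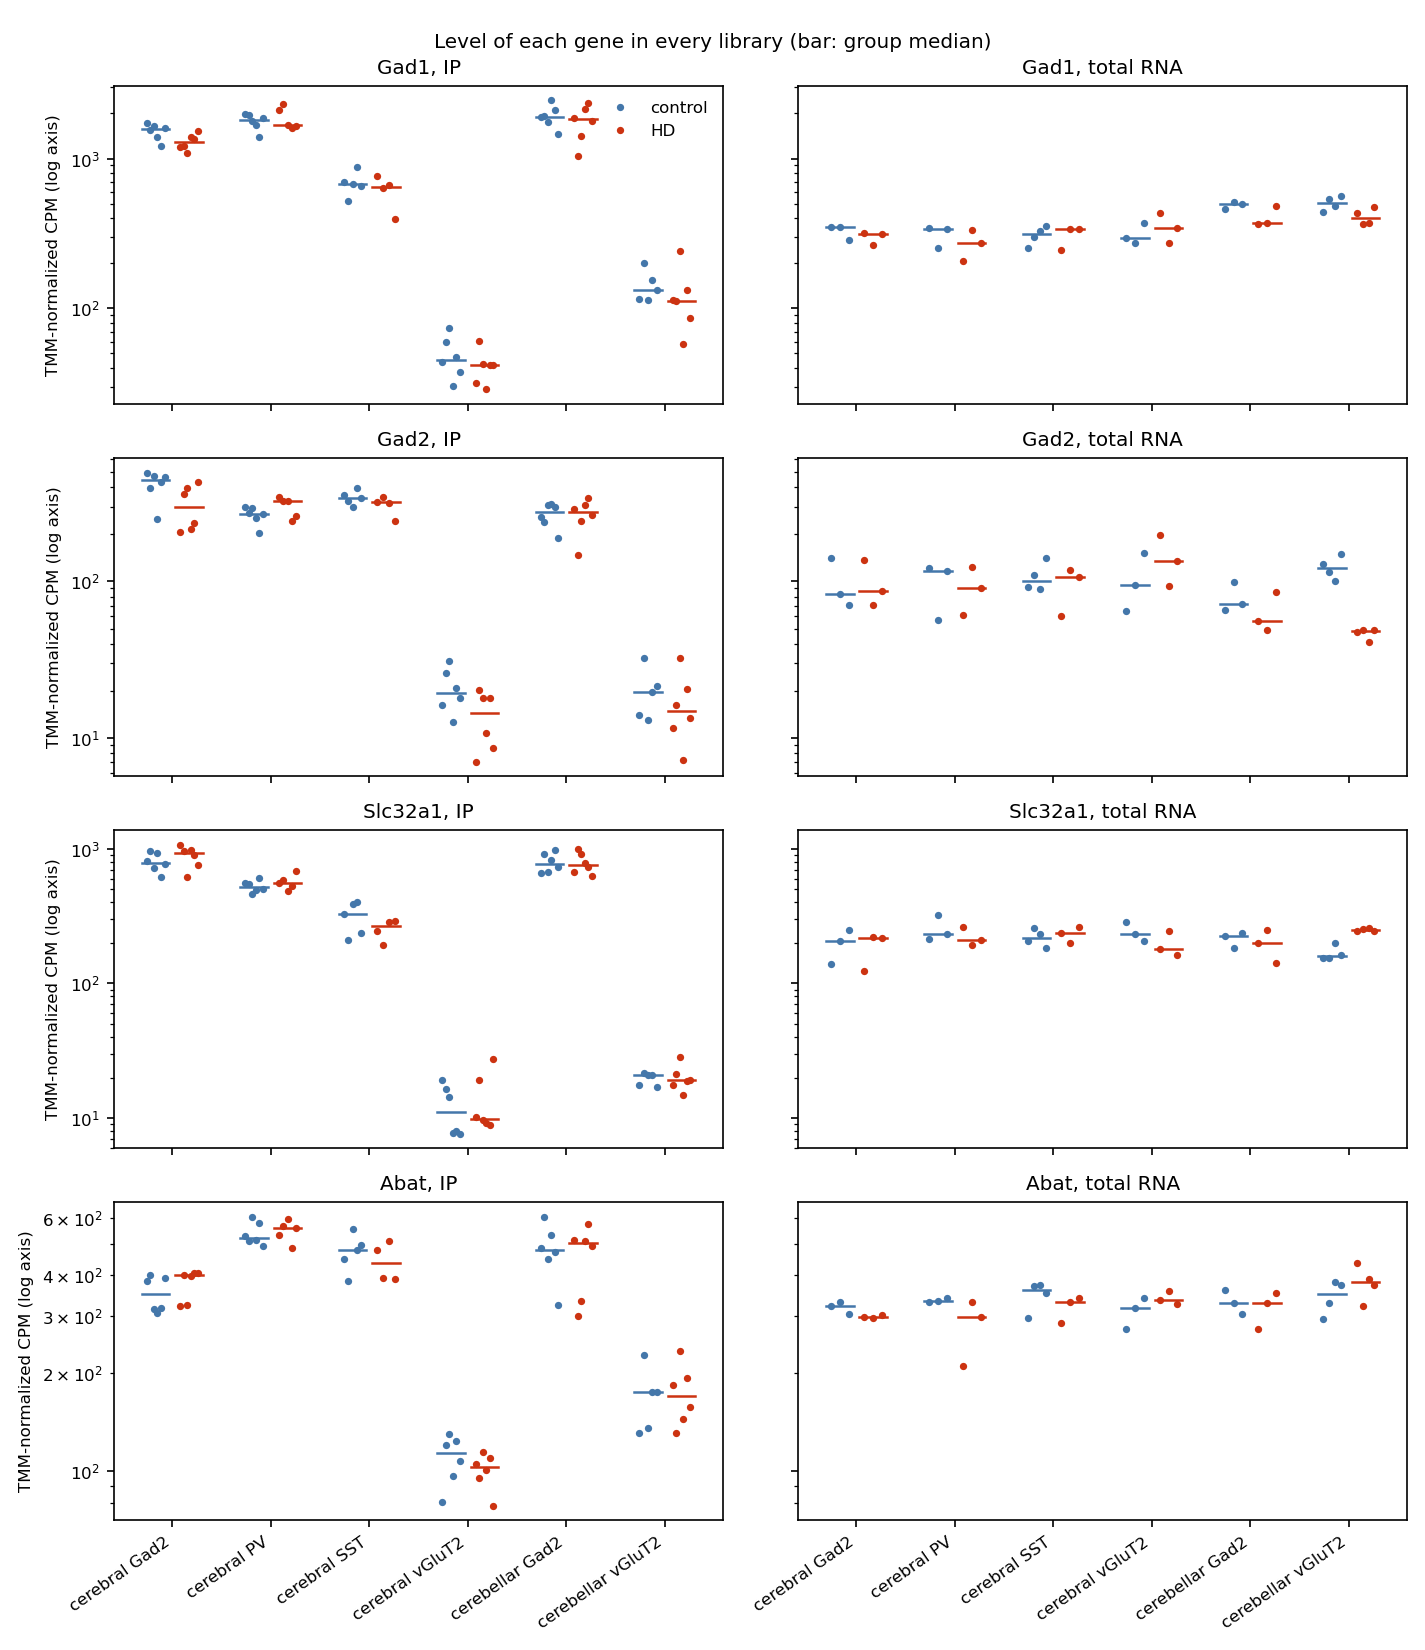
TMM CPM of the 4 genes in every IP and total RNA library on a log axis, by cell type, region and genotype, with a bar at each median. IPs of Gad2+, PV+ and SST+ neurons have medians above those of their total RNA, and IPs of vGluT2+ neurons lie below it.

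Among control IPs the order of median *Gad1* levels was cerebellar Gad2+ (1904 CPM), PV+ (1812), cerebral Gad2+ (1576), SST+ (681), cerebellar vGluT2+ (133) and cerebral vGluT2+ (45.5). The first 3 overlapped their neighbours, and each later step in the order was free of overlap. For *Gad2* the order was cerebral Gad2+ (446 CPM), SST+ (339), cerebellar Gad2+ (277), PV+ (269), cerebellar vGluT2+ (19.8) and cerebral vGluT2+ (19.4). Only the step from PV+ to cerebellar vGluT2+ was free of overlap. *Slc32a1* ran from cerebral Gad2+ (789 CPM) and cerebellar Gad2+ (775), which overlapped, through PV+ (523) and SST+ (327) to cerebellar vGluT2+ (20.8) and cerebral vGluT2+ (11.1), which overlapped each other. *Abat* ran from PV+ (522 CPM) through SST+ (479.5), cerebellar Gad2+ (478) and cerebral Gad2+ (351), each overlapping the next, to cerebellar vGluT2+ (175) and cerebral vGluT2+ (114), which stood apart from each other and from the rest.

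The same control IPs were compared in 1 fit of 14571 genes by edgeR's quasi-likelihood test, and these contrasts share samples. Marker sums also differed between these control IPs, given here as medians for cerebral Gad2+, PV+ and SST+ IPs. The astrocyte list summed to 480, 1393 and 2098 CPM and the oligodendrocyte list to 769, 1828 and 2912 CPM. The glutamatergic list summed to 226, 972 and 1036 CPM, and the striatal projection neuron list to 5964, 325 and 599 CPM. Their part in the differences below was not tested. PV+ less cerebral Gad2+ IPs called 3 of 4 members, with 53.4% of genes called: *Gad2* at −0.63 (SE 0.193, adjusted p = 0.00694), *Slc32a1* at −0.57 (SE 0.187, adjusted p = 0.0102) and *Abat* at 0.64 (SE 0.134, adjusted p = 0.000170). SST+ less cerebral Gad2+ IPs called 3 of 4, with 53.5% of genes called: *Gad1* at −1.11 (SE 0.178, adjusted p = 4.66e-06), *Slc32a1* at −1.32 (SE 0.201, adjusted p = 2.32e-06) and *Abat* at 0.46 (SE 0.139, adjusted p = 0.00616). Without the SST controls coded Z, also chosen after the data had been seen, which leaves 2 SST+ IPs, *Abat* lost its call (0.33, adjusted p = 0.193 by the same edgeR test). Between the interneuron types, PV+ less SST+ IPs called 2 of 4 against 14.7% of genes, *Gad1* at 1.36 (SE 0.179, adjusted p = 1.15e-06) and *Slc32a1* at 0.74 (SE 0.198, adjusted p = 0.00852). *Gad2* was not called between those interneuron types, at −0.38 (SE 0.201, adjusted p = 0.220) by the same edgeR test.

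In the same fit, cerebral vGluT2+ less Gad2+ IPs called 4 of 4 members lower, with 30.1% of genes called in either direction, at −5.01, −4.37, −6.06 and −1.73 in the order *Gad1*, *Gad2*, *Slc32a1*, *Abat*. In the cerebellum that contrast called 4 of 4 lower with 58.7% of genes called, at −3.71, −3.68, −5.30 and −1.46. In both regions the vesicular transporter had the lowest log2 difference of the 4 genes and the transaminase the one nearest 0. IPs of both regions came from the same mice, all 6 controls of the Gad2 line and 5 of the vGluT2 line, which this fit does not block on. Between regions, cerebellar less cerebral Gad2+ IPs called 2 of 4 against 55% of genes, *Gad2* at −0.71 (SE 0.194, adjusted p = 0.00222) and *Abat* at 0.37 (SE 0.133, adjusted p = 0.0172) by the edgeR test. The call of *Abat* was lost without control cerebellar Gad2+ IP replicate 4 (0.29, adjusted p = 0.0674 by the same edgeR test). Cerebellar less cerebral vGluT2+ IPs called 3 of 4 against 63.7% of genes, *Gad1* at 1.58 (SE 0.176, adjusted p = 1.4e-09), *Slc32a1* at 0.70 (SE 0.199, adjusted p = 0.00288) and *Abat* at 0.65 (SE 0.14, adjusted p = 0.000141) by the edgeR test, while *Gad2* differed by −0.02 and was not called. With the mouse as a block, chosen after the data had been seen, the same members were called between regions, and *Abat* in Gad2+ IPs was at 0.41 (adjusted p = 0.0301 by the edgeR test).

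**Figure D2:**
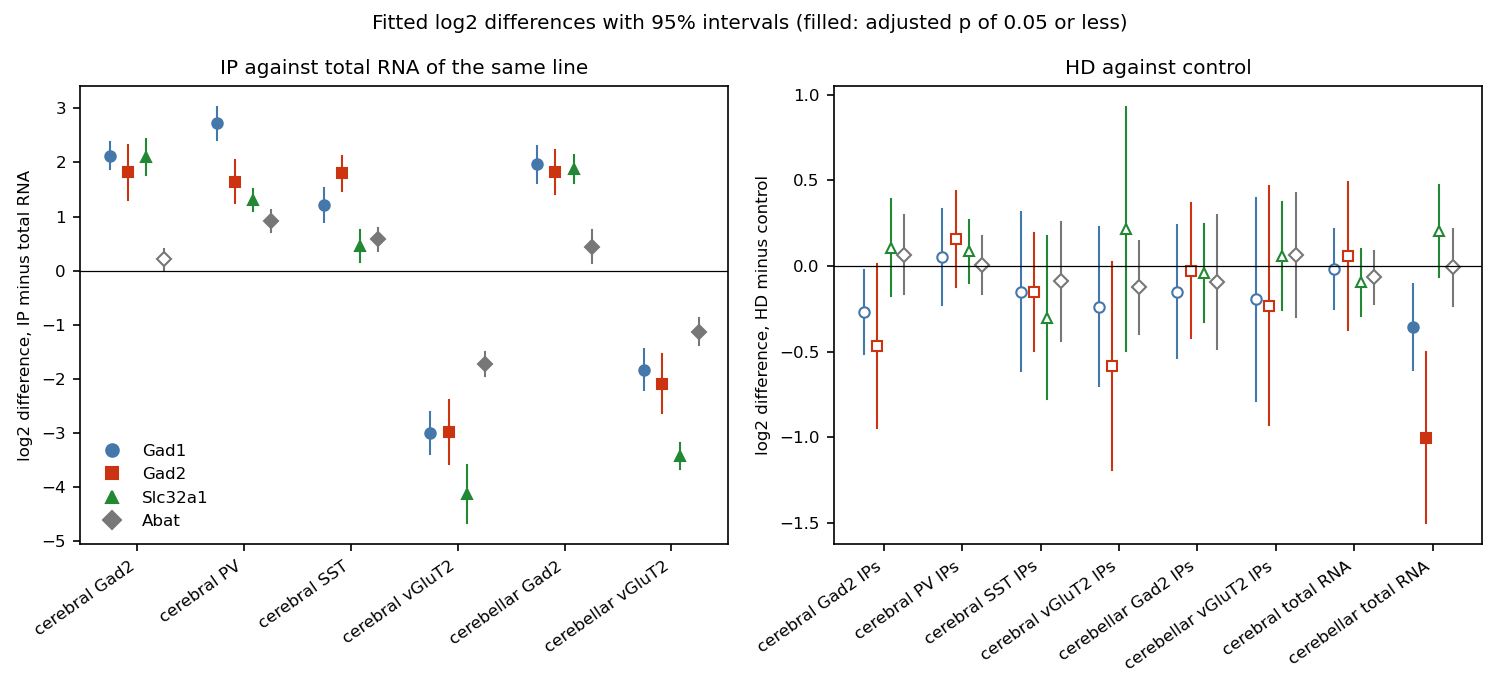
Fitted log2 differences of the 4 genes with 95% confidence intervals, for IP against total RNA and for HD against control, a filled point marking a call at an adjusted p of 0.05 or less. The IP differences run from −4.13 to 2.73, and the HD differences from −1.0 to 0.22.

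In control total RNA of the Gad2 and vGluT2 lines, cerebellum was compared with cerebrum, and 1 of 4 members was called against 58.2% of 14901 genes. *Gad1* was 439 to 564 CPM over the 7 cerebellar libraries and 272 to 373 CPM over the 6 cerebral libraries, without overlap, a log2 difference of 0.68 (SE 0.125, adjusted p = 0.000505) by edgeR's quasi-likelihood test. *Slc32a1*, at −0.18 (SE 0.135, adjusted p = 0.274), was called only without control cerebral Gad2 total RNA replicate 1 (−0.27, adjusted p = 0.0438 by the same edgeR test). *Abat*, at 0.15 (SE 0.102, adjusted p = 0.221), was called by that edgeR test only with the mouse as a block (0.28, adjusted p = 0.0489). *Gad2* differed by 0.01 over both lines, which went opposite ways. Its control means in cerebellum and cerebrum were 78.6 and 98.1 CPM in the Gad2 line, and 123 and 103 CPM in the vGluT2 line. The regions overlapped in each line, and no fit with the GC slope was made for this contrast. Since the Gad2 line carries Cre in *Gad2*, its total RNA was compared with the other lines of each region. None of 4 members was called by edgeR in cerebrum, where 0.255% of 14880 genes were called, 2032 genes had an unadjusted p under 0.05 and DESeq2 called 194. With a covariate for library GC content, chosen after the data had been seen, 1 member was called there, *Slc32a1* (−0.21, adjusted p = 0.00376 by the edgeR test). That covariate is centred within each line, so it cannot adjust for a GC difference between lines. In cerebellum edgeR also called 0 of 4, with 0.0138% of 14477 genes called, 272 at an unadjusted p under 0.05 and 2 called by DESeq2. The *Gad2* log2 difference of its own line from the others was −0.04 in cerebrum and −0.07 in cerebellum. The cerebellar value averages opposite differences in the 2 genotypes. Control libraries there ran from 65.4 to 98.5 CPM in the Gad2 line and from 101 to 149 CPM in the vGluT2 line, without overlap. Those of HD mice ran from 48.8 to 85.4 CPM and from 41.2 to 49.1 CPM in the same order, with overlap.

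Levels of different genes were compared per kb of the longest transcript. The ratio of *Gad1* to *Gad2* per kb was taken within each library, and its median over control libraries was 12.4 in cerebellar vGluT2+, 12.0 in cerebellar Gad2+, 10.8 in PV+, 5.58 in cerebral Gad2+, 3.72 in cerebral vGluT2+ and 3.10 in SST+ IPs. Control libraries of SST+ IPs spanned 2.57 to 3.66, cerebral Gad2+ 4.45 to 8.88 and PV+ 9.64 to 11.4, so that the PV+ range stood above both others. Over both genotypes that ratio had medians of 5.63 in cerebral Gad2+, 10.5 in PV+, 3.10 in SST+, 3.81 in cerebral vGluT2+, 11.2 in cerebellar Gad2+ IPs, and for cerebellar vGluT2+ IPs it was 11.7. With exon union length, an alternative chosen after the data had been seen, these became 2.71, 5.06, 1.5, 1.84, 5.39 and 5.66 in the same order, so the size of the ratio depends on the length used. By the longest transcript, cerebellar total RNA had medians of 10.7 in the Gad2 line and 9.60 in the vGluT2 line. Cerebral total RNA had 5.90, 4.74, 4.57 and 4.32 in the Gad2, PV, SST and vGluT2 lines. Both genes were low in vGluT2+ IPs, and the part of RNA from other cells in their ratios was not tested. Over both genotypes the median ratio of *Gad1* to *Slc32a1* per kb was 1.31 in cerebral Gad2+, 1.81 in SST+ and 2.07 in cerebellar Gad2+ IPs. With exon union length these 3 became 0.618, 0.855 and 0.976, so which of the pair is more abundant depends on the length used there. It stayed above 1 by both lengths in PV+ (2.76 and 1.30), cerebral vGluT2+ (2.91 and 1.37) and cerebellar vGluT2+ IPs (5.06 and 2.39). By either length *Gad2* stayed below *Slc32a1* in Gad2+, PV+ and SST+ IPs, with median ratios of 0.237 in cerebral Gad2+, 0.261 in PV+, 0.542 in SST+ and 0.187 in cerebellar Gad2+ IPs by the longest transcript.

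The second question is whether HD changed these mRNAs on the ribosomes of each cell type. In cerebral Gad2+ IPs edgeR called 0 of 4 members and 0.0279% of 14342 genes (4), 1313 genes had an unadjusted p under 0.05, and DESeq2 called 75 genes. PV+ IPs had 0 of 4 members called by edgeR, with 0.034% of 14713 genes called (5), 630 at an unadjusted p under 0.05 and 42 called by DESeq2. SST+ IPs likewise had 0 of 4 members and 0% of 14689 genes (0 called by edgeR), 207 genes had an unadjusted p under 0.05, and DESeq2 called 2 genes. For cerebral vGluT2+ IPs edgeR called 0 of 4 members and 0.00697% of 14354 genes (1), 1045 genes had an unadjusted p under 0.05, and DESeq2 called 25 genes. Cerebellar Gad2+ IPs had 0 of 4 called by edgeR, with 0.0142% of 14098 genes called (2), 324 at an unadjusted p under 0.05 and 22 called by DESeq2. Cerebellar vGluT2+ IPs had 0 of 4 called by edgeR, with 2.11% of 13487 genes called (285), 2090 at an unadjusted p under 0.05 and 665 called by DESeq2. DESeq2 called none of the 4 members in any of these 6 comparisons. Without the SST controls coded Z, which leaves 2 control and 4 HD IPs, edgeR called 0 genes in SST+ IPs as well, and *Gad1* (0.04) and *Abat* (0.11) changed sign there. Neither the absence of a call nor a p above the threshold shows that a level was the same in both genotypes.

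*Gad1* in cerebral Gad2+ IPs ran from 1206 to 1717 CPM (median 1576, n = 6) in controls and from 1090.2 to 1525 CPM (median 1282, n = 6) in HD mice. *Gad2* ran from 249.96 to 494 CPM (median 446, n = 6) in controls and from 207 to 430.1 CPM (median 298, n = 6) in HD mice. For both decarboxylases 6 of 6 HD libraries lay below the control median, 2 of them below the lowest control for *Gad1* and 3 for *Gad2*, and the groups overlapped. Log2 differences were −0.27 (SE 0.115, unadjusted p = 0.0358, adjusted p = 0.536 by edgeR's quasi-likelihood test) for *Gad1* and −0.47 (SE 0.223, unadjusted p = 0.0548, adjusted p = 0.536) for *Gad2*. *Slc32a1* went the other way, from 616 to 956 CPM (median 789, n = 6) in controls and from 619.6 to 1069 CPM (median 927, n = 6) in HD mice, with 4 of 6 HD libraries above the control median and a log2 difference of 0.11 (SE 0.131, adjusted p = 0.715) by the same edgeR test, which turned to −0.09 with a covariate for library GC content. With that covariate, chosen after the data had been seen, *Gad1* was at −0.20 and *Gad2* at −0.13, neither called. *Abat* ran from 307 to 401 CPM (median 351, n = 6) in controls and from 321 to 407 CPM (median 399.7, n = 6) in HD mice, with a log2 difference of 0.07 (SE 0.108, adjusted p = 0.782) by the same edgeR test.

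The GC slope of a library, defined with total RNA below, leaned with genotype in these IPs, from −0.242 to 0.136 (median −0.197) in controls and from −0.187 to 0.372 (median 0.192) in HD mice, with overlap. Within these 12 libraries Pearson's r with the slope, given as a description, was −0.386 for *Gad1* and −0.885 for *Gad2*, and the part of the slope in their differences was not tested. Control replicate 5 of these IPs held 89.1% of its counts on protein-coding genes, against 96.3 to 98.0% in the other 5 controls, and without it *Gad1* was at −0.23 and *Gad2* at −0.42, neither called. Markers moved in the same cerebral Gad2+ IPs, none of them called by edgeR. The summed level of 8 striatal projection neuron markers, *Ppp1r1b* the most abundant, was 5168 to 6887 CPM (median 5964) in controls and 3110.1 to 5032 CPM (median 4273) in HD mice, without overlap, and all 8 had log2 differences below 0 (median −0.55). The 7 GABAergic markers, *Sst* the most abundant, summed to 1277 to 1852 CPM (median 1572) and 1232 to 1822 CPM (median 1482) (median log2 difference −0.04). The 7 astrocyte markers, *Slc1a2* the most abundant, summed to 206 to 767 CPM (median 479.7) in controls and 174 to 461 CPM (median 318) in HD mice, with overlap (median −0.42), and the 5 microglia markers, *Csf1r* the most abundant, to 55.8 to 130.5 CPM (median 78.5) and 60.9 to 261 CPM (median 130.1), with overlap (median 0.84). No list had a marker at 0 in all libraries of a group. In cerebral vGluT2+ IPs the striatal sum was 367 to 499 CPM (median 402) in controls and 275 to 364 CPM (median 308) in HD mice, again without overlap, and the astrocyte sum 489 to 807 CPM (median 618) and 372 to 549 CPM (median 454). The part of these cell types in the members' levels was not tested.

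In cerebral vGluT2+ IPs, where the 4 genes were low, *Gad2* ran from 12.6 to 31.1 CPM (median 19.4, n = 6) in controls and from 7.08 to 20.2 CPM (median 14.4, n = 6) in HD mice. Of the HD libraries 5 of 6 lay below the control median and 3 below the lowest control, with overlap. The log2 difference of −0.58 (SE 0.283, unadjusted p = 0.0590, adjusted p = 0.679) did not pass edgeR's quasi-likelihood test. The re-sequenced HD library of this set held 81.9% of its counts on protein-coding genes, against 96.0 to 97.5% in the other 5 HD libraries, and without it *Gad2* was at −0.47, not called. With the GC covariate *Gad2* was at −0.38, not called. *Gad1*, *Slc32a1* and *Abat* differed there by −0.24, 0.22 and −0.12. The sign of *Slc32a1* depended on the fit, turning with the replicate number as a block and in fits without a single library. That of *Abat* turned with the GC covariate. Across PV+, SST+ and both cerebellar IPs the members' log2 differences ran from −0.30 (*Slc32a1* in SST+ IPs) to 0.16 (*Gad2* in PV+ IPs). Their 95% confidence intervals all included 0, the widest being −0.93 to 0.47 for *Gad2* in cerebellar vGluT2+ IPs and the narrowest −0.16 to 0.17 for *Abat* in PV+ IPs. HD and control levels overlapped for each of the 4 genes in each of the 6 kinds of IP. The direction of *Gad1* and *Gad2* in cerebellar vGluT2+ IPs depended on a covariate for library GC content, described with total RNA.

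Whether the HD effect itself differed between cell types or regions was tested as an interaction by edgeR's quasi-likelihood test. Cerebral vGluT2+ less cerebral Gad2+ IPs gave 0 of 4 members called by edgeR, with 0% of 14477 genes called, 209 at an unadjusted p under 0.05 and 1 called by DESeq2. Cerebellar vGluT2+ less cerebellar Gad2+ IPs gave 0 of 4 by edgeR, with 0.107% of 13971 genes called, 989 at an unadjusted p under 0.05 and 73 called by DESeq2. Cerebellar less cerebral Gad2+ IPs gave 0 of 4 by edgeR, with 0% of 14472 genes called, 777 at an unadjusted p under 0.05 and 21 called by DESeq2. The difference furthest from 0 among these 12 was that of *Gad2* between cerebellar and cerebral Gad2+ IPs, 0.43 (SE 0.300, unadjusted p = 0.164, adjusted p = 0.833 by the same edgeR test). The last of these contrasts takes both regions from the same 6 control and 6 HD mice, and with the mouse as a block, chosen after the data had been seen, *Gad2* was at 0.44 (adjusted p = 0.74 by the edgeR test), with 0 of 4 called. No HD effect on a member was thus shown to differ between these cell types.

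The ratio of *Gad1* to *Gad2* per kb within a library was compared between genotypes by the two-sided exact permutation test of the mean log2 ratio, with 6 tests adjusted after Benjamini and Hochberg. In cerebral vGluT2+ IPs the ratio ran from 3.35 to 4.29 (median 3.72) in 6 controls and from 3.70 to 7.68 (median 4.50) in 6 HD mice, a log2 difference of 0.41 (exact permutation p = 0.0541, adjusted 0.325). In cerebral Gad2+ IPs it ran from 4.45 to 8.88 (median 5.58) in controls and from 4.42 to 10.2 (median 7.19) in HD mice, a log2 difference of 0.24 (exact permutation p = 0.359, adjusted 0.539). Both genotypes overlapped in each. Pearson's r with the GC slope was −0.885 for *Gad2* and −0.386 for *Gad1* in cerebral Gad2+ IPs. In cerebral vGluT2+ IPs it was −0.732 and −0.542. The ratio was not fitted with the slope, whose part in these differences was not tested. Log2 differences in the other 4 cell types lay between −0.13 and 0.01, and none of the 6 passed at an adjusted p of 0.05 or less. The smallest p these group sizes allow was 0.00216 for 6 against 6 and 0.0159 for 5 against 4 mice. The cerebellar Gad2+ ratio passed without control IP replicate 5 (log2 difference −0.20, adjusted exact permutation p = 0.026). That library held 77.4% of its counts on protein-coding genes, against 97.3 to 98.1% in the other 5 controls of its group.

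In cerebral total RNA of 4 lines, with the line as a covariate, edgeR called 0 of 4 members against 0.645% of 14880 genes (96), with 1046 at an unadjusted p under 0.05 and 213 called by DESeq2. Log2 differences between 12 HD and 13 control libraries were −0.02 for *Gad1*, 0.06 for *Gad2*, −0.10 for *Slc32a1* and −0.06 for *Abat*, the last with a 95% confidence interval of −0.22 to 0.09. The sign of *Gad2* turned with a covariate for library GC content and in the Gad2, PV and SST lines each fitted alone. The signs of *Gad1* and *Abat* turned in the vGluT2 line alone, and that of *Slc32a1* in the SST line alone. These alternatives were chosen after the data had been seen, and none of the turned values was called. *Abat* was 321, 332 and 304 CPM in controls and 298, 296 and 302 CPM in HD mice of the Gad2 line, without overlap. In the PV line it was 331, 334 and 341 CPM in controls and 211, 330.4 and 299 CPM in HD mice, the nearest libraries almost touching. In the SST and vGluT2 lines *Abat* overlapped between genotypes, and in the vGluT2 line its HD median was the higher. Within sample sets, 4 of 48 comparisons of a member between genotypes were free of overlap. *Abat* in total RNA of the Gad2 and PV lines is among these 4. Groups this small can stand apart by chance, and how often other genes did so in these lines was not tested. The share of counts on protein-coding genes was 92.8, 93.8 and 92.3% in controls and 86.9, 88.3 and 90.3% in HD mice of the PV line, and 90.2, 91.4, 91.6 and 92.1% and 93.2, 92.2 and 94.0% in the SST line, apart in both and in opposite directions, and its part was not tested. Of striatal projection neuron markers 4 of 8 were called lower in this comparison, with a list median of −0.53.

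In cerebellar total RNA edgeR called 2 of 4 members, both lower in HD mice, where 24.5% of 14477 genes were called and 12.5% were called lower. With that many genes called, the count of members is given as a description. The share of genes called was itself unstable. It rose or fell severalfold when a single library was left out and fell with the replicate block within line, as the closing section gives. *Gad2* measured 128, 115, 101 and 149 CPM in the 4 controls of the vGluT2 line and 47.8, 48.7, 41.2 and 49.1 CPM in its 4 HD mice. In the Gad2 line *Gad2* measured 65.4, 98.5 and 72.0 CPM in controls and 56.2, 48.8 and 85.4 CPM in HD mice. The genotypes stood apart in the vGluT2 line and overlapped in the Gad2 line, where HD replicate 3 exceeded 2 of 3 controls. *Gad1* measured 439, 535, 482 and 564 CPM in controls and 432, 368, 371 and 471 CPM in HD mice of the vGluT2 line. In the Gad2 line it measured 461, 513 and 497 CPM in controls and 364, 369.7 and 481 CPM in HD mice. The genotypes overlapped in both lines for *Gad1*, with HD values mostly the lower. The share of counts on protein-coding genes was 94.0, 95.5, 96.2 and 93.5% in controls and 92.1, 91.0, 93.0 and 90.9% in HD mice of the vGluT2 line, without overlap, and 96.1, 93.9 and 95.5% and 93.9, 95.6 and 93.8% in the Gad2 line, with overlap, and its part in the result was not tested. Over both lines the log2 difference was −1.0 (SE 0.234, adjusted p = 0.0279) for *Gad2* and −0.35 (SE 0.117, adjusted p = 0.0431) for *Gad1* by edgeR's quasi-likelihood test. Both calls were lost with the replicate number as a block within line (*Gad2* −1.02, *Gad1* −0.36, adjusted p = 0.121 for both by the same edgeR test), and that of *Gad1* without the filter on low counts (−0.35, adjusted p = 0.0507).

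*Slc32a1* went the other way in the vGluT2 line, with 155, 155, 199 and 162 CPM in controls and 243, 251, 259 and 247 CPM in HD mice, and no overlap. In the Gad2 line it measured 224, 183 and 236 CPM in controls and 200.2, 248 and 141 CPM in HD mice, with overlap. Over both lines its log2 difference of 0.20 (SE 0.125, adjusted p = 0.216) was not called by edgeR's quasi-likelihood test. *Abat* measured 293, 328, 381 and 375 CPM in controls and 438, 323, 389 and 374 CPM in HD mice of the vGluT2 line, with overlap. In the Gad2 line it measured 362, 330.1 and 305 CPM in controls and 274, 329.6 and 352 CPM in HD mice, with overlap, and the log2 difference over both lines was −0.01 (SE 0.105, adjusted p = 0.955) by the same edgeR test. Fits of each line alone, chosen after the data had been seen, put *Gad2* at −0.30 and *Gad1* at −0.27 in the Gad2 line, neither called by edgeR. In the vGluT2 line alone *Gad2* at −1.53 (adjusted p = 0.000116 by the edgeR test), *Gad1* at −0.43 (0.0259) and *Slc32a1* at 0.45 (0.00573) were called, with 7565 of 14630 genes called. *Gad1* lost its call without any of 11 of the 14 libraries (adjusted p up to 0.0938 by the same edgeR test), namely each vGluT2-line library, control Gad2-line replicate 2 and HD Gad2-line replicates 1 and 2. *Gad2* lost its call without any of 9 (up to 0.0651), namely each vGluT2-line library except HD replicate 1, with control and HD Gad2-line replicates 2. Without HD Gad2-line replicate 3 *Slc32a1* was called higher (0.29, adjusted p = 0.0255 by the same edgeR test).

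Libraries also differed in how their levels follow the GC content of transcripts. The GC slope of a library is the slope of its log2 levels, each less the mean of the library's own sample set, on transcript GC content, in log2 units per 10 percentage points. In cerebellar total RNA of the vGluT2 line slopes ran from −0.520 to −0.103 in controls and from 0.189 to 0.497 in HD mice. Genotypes did not overlap there, so slope and genotype cannot be told apart in that line, while in the other 11 sample sets the slopes of both genotypes overlapped. In the Gad2 line they ran from −0.361 to 0.186 and from −0.432 to 0.444. Transcript GC content was 44.1% for *Gad2*, 47.3% for *Gad1*, 50.2% for *Abat* and 61.9% for *Slc32a1*, at percentiles 20.3, 35.4, 50.7 and 98.0 of the genes compared. With the slope as a covariate, an alternative chosen after the data had been seen, the HD effect on *Gad2* in cerebellar total RNA became −0.41 (adjusted p = 0.0962 by edgeR's quasi-likelihood test), that on *Gad1* −0.17 (0.452) and that on *Slc32a1* −0.09, none of them called, and genes called there went from 3544 to 132.

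Levels were then related to the slope, both centred within sample sets, in 8 relations whose p values were adjusted together, 1e-05 being the smallest these permutations can give. Libraries are not all from different mice, which these p values do not take into account. IPs of both regions came from 6 control and 6 HD mice of the Gad2 line and 5 control and 6 HD mice of the vGluT2 line. Some mice also gave total RNA of both regions. Over 39 total RNA libraries Pearson's r for *Gad2* was −0.915 (permutation p = 1e-05, adjusted 2e-05), with Spearman's rho −0.931 (permutation p = 1e-05, adjusted 2e-05), r −0.918 without the 2 libraries of most distant slope, and r from −0.994 to −0.829 within the 6 sample sets. For *Slc32a1* it was 0.946 (permutation p = 1e-05, adjusted 2e-05), with Spearman's rho 0.928 (permutation p = 1e-05, adjusted 2e-05), r 0.936 without the 2 libraries of most distant slope, and r from 0.861 to 0.981 within the 6 sample sets. The slope is itself fitted on GC content over all genes, so a gene of high GC content tends to rise with it and a gene of low GC content to fall. The p values test r against 0 only, and whether these 4 genes follow the slope more than other genes of like GC content was not tested. For *Gad1* r over the same libraries was −0.684 (permutation p = 2e-05, adjusted 3.2e-05), with Spearman's rho −0.696 (permutation p = 1e-05, adjusted 2e-05), r −0.712 without the 2 libraries of most distant slope, and r from −0.908 to −0.583 within the 6 sample sets. *Abat*, of middling GC content, had r −0.0416 (permutation p = 0.802, adjusted 0.802), with Spearman's rho −0.0117 (permutation p = 0.942, adjusted 0.942), r −0.0470 without the 2 libraries of most distant slope, and r from −0.459 to 0.583 within the 6 sample sets. Over 67 IPs r for *Gad2* was −0.727 (permutation p = 1e-05, adjusted 2e-05), with Spearman's rho −0.738 (permutation p = 1e-05, adjusted 2e-05), r −0.714 without the 2 libraries of most distant slope, and r from −0.885 to −0.702 within the 6 sample sets. *Gad1* had −0.573 (permutation p = 1e-05, adjusted 2e-05), with Spearman's rho −0.476 (permutation p = 6e-05, adjusted 9.6e-05), r −0.489 without the 2 libraries of most distant slope, and r from −0.943 to −0.386 within the 6 sample sets. For *Slc32a1* in IPs it was 0.392 (permutation p = 0.000800, adjusted 0.00107), with Spearman's rho 0.446 (permutation p = 0.000160, adjusted 0.000213), r 0.387 without the 2 libraries of most distant slope, and r from −0.742 to 0.868 within the 6 sample sets. *Abat* in IPs had −0.323 (permutation p = 0.00799, adjusted 0.00913), with Spearman's rho −0.339 (permutation p = 0.00583, adjusted 0.00666), r −0.213 without the 2 libraries of most distant slope, and r from −0.745 to 0.132 within the 6 sample sets. For *Slc32a1* and *Abat* in IPs the sign of r thus differed between sample sets, so those 2 relations did not hold within every set. The slope is computed from all genes of a library, these 4 included, and what part it has in any HD difference was not tested.

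**Figure D3:**
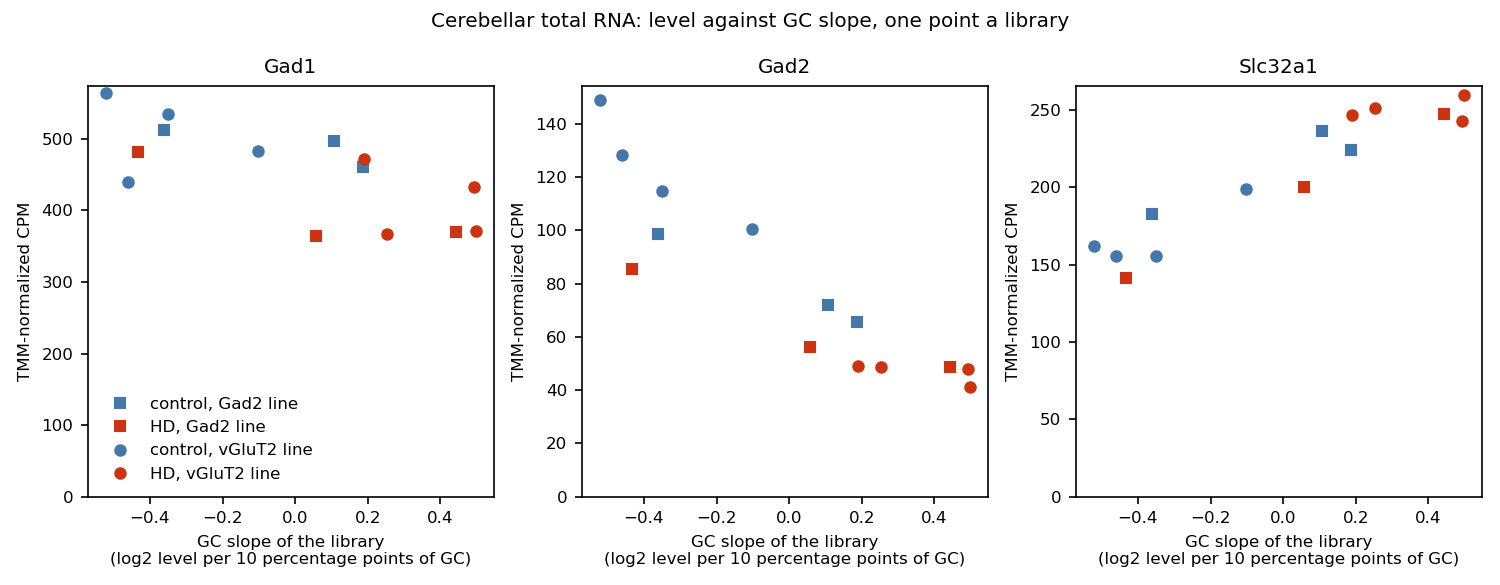
TMM CPM of *Gad1*, *Gad2* and *Slc32a1* in each cerebellar total RNA library against the library's GC slope (log2 per 10 percentage points of GC), by line and genotype. *Gad2* falls and *Slc32a1* rises with the slope, and the 4 HD libraries of the vGluT2 line lie at slopes of 0.189 to 0.497.

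Markers of cerebellar cell types moved in the same comparison. Their calls are to be read beside the 24.5% of all genes tested that were called there, with 12.5% called lower. They come from the fit without the GC slope as a covariate, and marker calls with it are not given here. Of 5 Purkinje cell markers 3 (*Calb1*, *Foxp2*, *Itpr1*) were called lower, while *Car8* at −0.55 (adjusted p = 0.0544 by edgeR's quasi-likelihood test) and *Pcp2* at 0.05 were not. *Pcp2* ran from 319.7 to 476 CPM in controls and from 399 to 576 CPM in HD mice of the vGluT2 line, with overlap and the higher median in HD mice. The summed level of the list was 4068, 4470.4, 4687 and 4679.5 CPM in controls and 2855, 2680.1, 2488 and 2819 CPM in HD mice of the vGluT2 line. In the Gad2 line the Purkinje sum was 4162, 4507 and 3743 CPM in controls and 2939.6, 2849.6 and 3792 CPM in HD mice. *Itpr1*, the most abundant of that list, ran from 1792 to 2548 CPM in controls and from 737 to 1568 CPM in HD mice of the vGluT2 line, and HD replicate 3 of the Gad2 line alone among 7 HD libraries had a sum in the control range. *Pvalb*, a GABAergic marker also present in Purkinje cells, ran from 798 to 1103 CPM in controls and from 1143 to 1704 CPM in HD mice of the vGluT2 line, higher in HD mice without overlap, and at 0.21 over both lines it was not called.

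In the same comparison, of 4 molecular layer and Golgi interneuron markers 3 (*Sorcs3*, *Lgi2*, *Kit*) were called lower, *Kit* being the most abundant. *Grm2* was not, at −0.06, with 23.8 to 38.6 CPM in controls and 34.5 to 43.2 CPM in HD mice of the vGluT2 line. The sum of the list was 458, 361, 409 and 411 CPM in controls and 286, 278, 278 and 313 CPM in HD mice of the vGluT2 line, and 405, 403 and 338 CPM and 274, 298 and 365 CPM in the Gad2 line. All 4 HD sums of the vGluT2 line lay below its controls for the Purkinje and the interneuron list. Of 5 microglia markers 3 (*Csf1r*, *Tmem119*, *C1qa*) were called higher, *Csf1r* being the most abundant. *P2ry12* at −0.33 and *Cx3cr1* at 0.02 were not, *P2ry12* with 5.36 to 11.8 CPM in controls and 3.72 to 9.59 CPM in HD mice of the vGluT2 line. The microglia list had sums of 80.8, 73.5, 85.9 and 81.9 CPM in controls and 143, 131, 141 and 129 CPM in HD mice of the vGluT2 line.

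The microglia sum in the Gad2 line was 88.9, 84.8 and 97.6 CPM in controls and 96.7, 106 and 83.7 CPM in HD mice, with overlap. Median log2 differences were −0.56 over the Purkinje list, −0.40 over the interneuron list and 0.51 over the microglia list, against −0.01 over all genes tested. The granule cell list had a median of −0.51, with no gene past the threshold of the edgeR test (lowest adjusted p = 0.0755, for *Etv1*), and *Cntn2* went the other way at 0.17, with 253 to 348 CPM in controls and 325 to 514 CPM in HD mice of the vGluT2 line. Of 4 glutamatergic markers tested (list median 0.14) *Slc17a7*, the most abundant, was called higher at 0.57 (adjusted p = 0.0371 by the same edgeR test), with 432 to 742 CPM in controls and 1229 to 1387 CPM in HD mice of that line. *Slc17a6* at −1.32 was not called.

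Glial lists were mixed in the same comparison. Of 7 astrocyte markers 3 (*Aqp4*, *Gja1*, *Slc1a2*) were called lower, with a list median of −0.26, and *Slc1a3* was the most abundant. Their sum ran over 3067 to 3728 CPM in controls and 2326 to 2872 CPM in HD mice of the vGluT2 line, and over 2742 to 3700.2 and 2504 to 3131 CPM in the Gad2 line. *Aldh1l1* went the other way in the vGluT2 line, with 44.7 to 84.5 CPM in controls and 87.0 to 135 CPM in HD mice, and at 0.30 over both lines it was not called. Of 5 oligodendrocyte markers 2 were called lower, *Mobp* among them, with a list median of −0.07, and *Mbp* was the most abundant. Their sum ran over 4095 to 4824 CPM in controls and 2890.4 to 4061 CPM in HD mice of the vGluT2 line, and over 3657 to 4270.2 and 2721 to 2915 CPM in the Gad2 line. *Mag*, with 167 to 198 CPM in controls and 277 to 383 CPM in HD mice of the vGluT2 line, and *Mog*, with 59.8 to 76.4 and 84.0 to 116 CPM, were higher there in HD mice without overlap, and neither was called over both lines (0.30 and 0.13).

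No marker of the Purkinje, interneuron or microglia lists was at 0 in all libraries of a group. The part of these cell types in the lower *Gad1* and *Gad2* levels was not tested. Cerebellar Gad2+ IPs, which carry the Purkinje and interneuron markers, gave HD differences of −0.15 for *Gad1* and −0.03 for *Gad2*, neither called, and the difference between total RNA and IPs was not tested.

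A list of 23 other genes of GABA metabolism and response covers the supply of glutamate and glutamine, the cofactor of glutamate decarboxylase, other routes to GABA, the step after *Abat*, plasma membrane and vesicular transporters, chloride transporters and the GABA-B receptors. In IP against total RNA its calls by edgeR, to be read beside the shares of all genes called (46.9, 71.6, 63.4, 52.9, 60.5 and 65.5% in the order below), are given with genes at the highest and the 3 lowest log2 differences. In cerebral Gad2+ IPs 5 of 23 were called higher and 11 lower, with a median of −0.25 against 0.03 over all genes, the highest including *Slc38a1* (0.97) and *Slc1a1* (0.68) and the lowest *Slc6a13* (−4.02), *Slc38a3* (−3.91) and *Aldh1a1* (−2.95). PV+ IPs had 8 of 23 called higher and 11 lower, with a median of 0.03 against 0.01 over all genes, the highest including *Slc38a1* (2.02), *Aldh5a1* (1.27) and *Gabbr2* (0.96) and the lowest *Slc38a3* (−3.37), *Slc6a13* (−3.07) and *Slc6a11* (−2.72). In SST+ IPs 7 of 23 were called higher and 11 lower, with a median of −0.24 against −0.01 over all genes, the highest including *Slc38a1* (1.10), *Aldh5a1* (0.82) and *Glud1* (0.70) and the lowest *Slc38a3* (−2.66), *Slc6a13* (−2.46) and *Slc6a11* (−2.07). Cerebral vGluT2+ IPs had 3 of 23 called higher and 12 lower, with a median of −0.61 against 0.00 over all genes, the highest including *Gabbr2* (0.61) and *Slc1a1* (0.27) and the lowest *Slc6a13* (−4.60), *Slc38a3* (−3.86) and *Slc6a11* (−3.70). In cerebellar Gad2+ IPs 7 of 22 were called higher and 8 lower, with a median of −0.10 against −0.02 over all genes, the highest including *Gabbr2* (1.13) and *Gabbr1* (0.90) and the lowest *Slc38a3* (−3.35), *Slc6a11* (−2.92) and *Aldh1a1* (−2.27). Cerebellar vGluT2+ IPs had 4 of 23 called higher and 13 lower, with a median of −0.44 against 0.07 over all genes, the highest including *Gls2* (0.48) and *Slc1a1* (0.43) and the lowest *Slc38a3* (−4.27), *Slc6a13* (−4.23) and *Slc6a11* (−3.95). *Slc6a13* and *Slc6a11*, plasma membrane GABA transporters, and *Slc38a3*, a glutamine transporter of astrocytes, thus held most of the lowest places in every cell type. *Slc1a1* in cerebral vGluT2+ IPs lost its call with the mouse as a block (0.33, adjusted p = 0.117 by edgeR's quasi-likelihood test) and without control total RNA replicate 1 (0.23, adjusted p = 0.068), and *Gls2* in cerebellar vGluT2+ IPs lost its call with that block (0.33, adjusted p = 0.0599).

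In the 6 HD comparisons of IPs edgeR called 0 genes of that list, with list medians from −0.12 to −0.01, and DESeq2 called 2 lower in PV+ and 1 lower in cerebellar vGluT2+ IPs. In the order used above, 2, 3, 2, 4, 1 and 5 of the list had an unadjusted p under 0.05. In cerebral total RNA, where 0.645% of all genes tested were called, 2 of 23 were called lower in HD mice, *Slc6a11* at −0.47 (SE 0.0772, adjusted p = 0.00180 by edgeR's quasi-likelihood test) and *Glul*, the glutamine synthetase of astrocytes, at −0.39 (SE 0.0872, adjusted p = 0.0332). *Glul* lost its call without any of 13 of the 25 libraries (adjusted p up to 0.0773 by the same edgeR test), without the filter on low counts (−0.38) and without the SST controls of the other code series (−0.35). No single line called either gene. In cerebellar total RNA 9 of 23 were called, against 24.5% of all genes tested. Of these 6 were called higher, among them *Pdxp* (0.52), *Pdxk* (0.48), *Slc38a3* (0.47), *Aldh9a1* (0.45) and *Gabbr1* (0.29), of which *Pdxk* and *Pdxp* act on the cofactor of glutamate decarboxylase. There 3 were called lower, *Slc12a2* (−1.23), *Aldh1a1* (−0.49) and *Gabbr2* (−0.49). The median over the list was −0.03, against −0.01 over all genes tested. These 9 calls were each lost without any of 9 to 11 of the 14 libraries. All 9 were also lost with the GC slope as a covariate, with the replicate block within line and in the Gad2 line alone, where *Slc38a3* changed sign (−0.08), and all 9 held in the vGluT2 line alone. *Gabbr1* and *Slc38a3* lost theirs without the filter on low counts and with DESeq2 size factors as well.

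Across the 12 control sample sets (6 of IPs and 6 of total RNA) the genes with a pattern most like each member were ranked among 14758 protein-coding genes by Pearson's r of mean log2 levels. These 12 points share mice, lines and libraries' depth, and r is given as a description. For *Gad1* they were *Spsb4* (0.939), *Btbd11* (0.936), *Slc6a5* (0.934), *Aldh5a1* (0.931) and *Slc32a1* (0.924). For *Gad2* they were *B3galt5* (0.968), *Slc32a1* (0.933), *Sv2c* (0.910), *Chrna2* (0.910) and *Gad1* (0.909). For *Slc32a1* they included *Slc6a5* (0.974), *Grin2d* (0.948), *Spsb4* (0.943) and *Zfp516* (0.936), and for *Abat* they were *Slc6a5* (0.9751), *Slc25a13* (0.955), *Anks1* (0.952), *Aifm2* (0.934) and *Slc32a1* (0.929). *Slc32a1* was thus among the 5 nearest of each of the other 3 members, and r between members ran from 0.893 to 0.933.

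Because members varied together across cell types, the promoters RefSeq gives for 3 of the 4 genes, *Abat* aside, were read, each as 250 bases upstream of the RefSeq start in GRCm38.p6, + strand. They had a GC content of 58% for *Gad1*, 64.0% for *Gad2* and 62.4% for *Slc32a1*, with 17, 13 and 12 CpG dinucleotides. Each was searched on both strands for 4 motifs, none of whose matches overlapped here. The motif TATAAA occurs in 12.4% of 32851 promoters of that length, the motif GGGCGG in 32.7% of them, the motif CCAAT in 33.8% of them and the motif TAATTA in 4.84% of them. *Gad1* held TATAAA on the other strand, 141 to 136 bases before the start, and GGGCGG on the other strand at 8 to 3 bases. *Gad2* held CCAAT on its own strand at 226 to 222 bases, and *Slc32a1* held none of the 4. Bases that GENCODE M21 places in an exon of the same gene are left out below, 87 for *Gad1* and 122 for *Gad2*, so the runs printed are chr2:70561879-70562041, chr2:22622077-22622204 and chr2:158610508-158610757. Capitals mark a match to a searched motif.
Gad1: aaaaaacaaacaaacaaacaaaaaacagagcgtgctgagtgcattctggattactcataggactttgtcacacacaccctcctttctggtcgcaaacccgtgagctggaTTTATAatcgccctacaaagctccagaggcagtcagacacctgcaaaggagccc
Gad2: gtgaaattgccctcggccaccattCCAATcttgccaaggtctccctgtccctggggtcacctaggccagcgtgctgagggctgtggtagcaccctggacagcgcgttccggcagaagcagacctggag
Slc32a1: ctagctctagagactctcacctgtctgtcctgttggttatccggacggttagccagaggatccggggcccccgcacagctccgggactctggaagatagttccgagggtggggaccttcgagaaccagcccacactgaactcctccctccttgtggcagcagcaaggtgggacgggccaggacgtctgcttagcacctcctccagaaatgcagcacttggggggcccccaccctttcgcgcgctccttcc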

How the data were processed

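The authors mapped reads with STAR and Salmon in nf-core/rnaseq on GRCm38.p6, and the deposited tables hold expected or estimated counts per gene, 8.57% of them not whole. The 92 spike-in controls, at most 4.45% of a library's counts, were left out. Counts were rounded. Re-sequenced libraries (3) came from mice other than those of the same number. Library size was the sum over mouse genes, scaled by TMM (factors 0.802 to 1.22). Protein-coding genes whose mean count exceeded 10 were fitted in 27 comparisons by edgeR 4.0.16 (quasi-likelihood, R 4.3.3), with Benjamini-Hochberg adjustment over all genes tested and calls at 0.05 or less. Alternatives were DESeq2 1.42.0, no filter, blocks, single lines, SST mice of 1 code series, a GC slope covariate, and each library left out.

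The members and gene lists were chosen with earlier results of these data known. Genes named are the 4 members, pathway genes called in an HD comparison or with the 3 highest or lowest IP ratios, the 5 genes nearest each member, and markers of 9 lists. Some genes picked by these rules are not reported here. IP and total RNA of a mouse were correlated in 37 pairs (median 0.149, from −0.577 to 0.77), and the fits did not block on the mouse. Same-numbered libraries were correlated in 48 pairs, in cerebral Gad2 total RNA all above 0.1 (0.561 to 0.964), and a block there changed no call of a member. Permutations were made in Python 3.11.15 with scipy 1.17.1. The fits were tested on simulated data.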

Additional observations from a re-analysis of the deposited data

Results flagged for a closer look

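Among 60 groups of 4 to 10 libraries checked for a library apart from the rest of its group, 2 had one, and chance gives about 1 in 20. *Gad2* in HD cerebellar vGluT2 total RNA replicate 3 was the lowest of 4, at 41.2 CPM against 47.8 to 49.1 CPM. *Slc32a1* in control cerebellar vGluT2 total RNA replicate 3 was the highest of 4, at 199 CPM against 155 to 162 CPM.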

How the results depend on the processing

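Limits. IP and total RNA come from the same mice, and levels are relative to all RNA of a library. Groups of 3 to 6 mice leave wide intervals. Apart from 3 re-sequenced libraries, sequencing batches are not labelled. Line, colony and Cre allele cannot be told apart, nor GC slope and genotype in cerebellar total RNA of the vGluT2 line. Of 548 values of members under alternatives other than left-out libraries, 503 kept direction and call, 29 changed sign, 10 lost a call and 6 gained one. With 1 library left out, 2161 of 2292 kept both.

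Apart from left-out libraries, no value was called after a change of sign. With the GC slope as covariate, chosen after seeing the data, signs changed in HD IPs for *Slc32a1* in cerebral Gad2+ (−0.093), *Abat* in cerebral vGluT2+ (0.0097), and *Gad1* (0.0062) and *Gad2* (0.024) in cerebellar vGluT2+; in total RNA for *Gad2* in cerebrum (−0.077) and *Slc32a1* (−0.089) and *Abat* (0.0094) in cerebellum; in interactions for *Gad1* between cerebral cell types (−0.039, and −0.023 without the filter), *Gad1* (0.13) and *Gad2* (0.000857) between cerebellar cell types, and *Gad1* (−0.086) and *Slc32a1* (0.049) between regions; and for *Slc32a1* between cerebellar lines (−0.015, and −0.00128 without the filter). That covariate took the cerebellar total RNA members called to 0 (*Gad1* −0.17, *Gad2* −0.41, adjusted p = 0.452 and 0.0962 by edgeR), and gave *Abat* a call in cerebral Gad2+ IPs against total RNA (0.21, adjusted p = 0.0367) and *Slc32a1* between cerebral lines (−0.21, adjusted p = 0.00376, 1 member called). Slopes are centred within each sample set, so the covariate cannot adjust for a GC difference between lines or between IP and total RNA.

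Of 48 pairs of same-numbered libraries correlations ran from −0.853 to 0.964, and 17 correlated best with their own number. In 11 of 12 sample sets at least 1 pair was below 0.1. In cerebral Gad2 total RNA all 3 pairs were above it (0.561 to 0.964), each best with its own number, and with a replicate block in that line alone, chosen after seeing the data, 0 members and 24 genes were called by edgeR. With a replicate block HD signs changed for *Abat* in PV+ (−0.016) and *Slc32a1* in cerebral vGluT2+ IPs (−0.16), and in cerebellar total RNA with the block within line 0 members were called (*Gad1* −0.36, *Gad2* −1.02, adjusted p = 0.121 for both). Genes called by edgeR with the block, in the order of the report, were 9, 0, 1, 0, 0 and 108 in IPs, 151 in cerebral and 9 in cerebellar total RNA. With a mouse block, *Slc32a1* in SST+ IPs against total RNA lost its call (0.27, adjusted p = 0.07), and *Abat* between regions gained one (0.28, adjusted p = 0.0489, 2 members called). A mouse block in the region contrasts of IPs, chosen after seeing the data, kept the call and sign of each member.

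Without the filter 1 member was called in cerebellar total RNA, *Gad1* missing at −0.35 (adjusted p = 0.0507), and *Abat* was called in cerebral Gad2+ IPs against total RNA (0.30, adjusted p = 0.0185), as it was against all cerebral total RNA (0.17, adjusted p = 0.0207). Without the SST controls coded Z, chosen after seeing the data, HD signs changed for *Gad1* (0.041) and *Abat* (0.11) in SST+ IPs and *Gad1* in cerebral total RNA (0.021), and *Abat* changed sign between cerebral lines (0.0067). *Slc32a1* in SST+ IPs against total RNA (0.29, adjusted p = 0.103 by edgeR) and *Abat* between SST+ and cerebral Gad2+ control IPs (0.33, adjusted p = 0.193) lost their calls. Each line alone, also chosen then, changed HD signs in cerebral total RNA for *Gad2* (−0.0073 Gad2, −0.074 PV, −0.19 SST line), *Slc32a1* (0.084, SST line), *Gad1* (0.24) and *Abat* (0.20, both vGluT2 line). In cerebellar total RNA the Gad2 line gave 0 members (*Gad1* −0.27, *Gad2* −0.30, *Slc32a1* −0.13, *Slc38a3* −0.076), and the vGluT2 line called *Slc32a1* higher (0.45, adjusted p = 0.00573), with *Abat* at 0.019.

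With 1 library left out, HD differences in PV+ IPs ran over −0.043 to 0.11 for *Gad1* and −0.015 to 0.051 for *Abat*, in SST+ IPs over −0.27 to 0.024 for *Gad1*, and in cerebral vGluT2+ IPs over −0.087 to 0.38 for *Slc32a1*. In cerebellar Gad2+ IPs they ran over −0.12 to 0.097 for *Gad2*, −0.12 to 0.020 for *Slc32a1* and −0.17 to 0.0051 for *Abat*, and in cerebellar vGluT2+ IPs over −0.055 to 0.13 for *Slc32a1* and −0.026 to 0.19 for *Abat*. Cerebral total RNA gave −0.077 to 0.032 for *Gad1* and −0.041 to 0.16 for *Gad2*. Cerebellar total RNA gave 0 to 3 members called, −0.44 to −0.31 for *Gad1*, −1.18 to −0.90 for *Gad2*, 0.16 to 0.29 for *Slc32a1* and −0.060 to 0.031 for *Abat*, with 96 genes called without HD vGluT2 total RNA replicate 4 and 7408 without HD Gad2 total RNA replicate 3. Without the latter *Slc32a1* was called (0.29, adjusted p = 0.0255 by edgeR). *Abat* in cerebral Gad2+ IPs against total RNA ran over 0.18 to 0.24. Between regions, Gad2+ IPs gave 1 to 2 members, −0.13 to 0.044 for *Slc32a1* and 0.29 to 0.48 for *Abat*, vGluT2+ IPs −0.27 to 0.13 for *Gad2*, and total RNA 1 to 2 members, −0.11 to 0.24 for *Gad2* and −0.27 to −0.025 for *Slc32a1*. Interactions between cerebral cell types ran over −0.13 to 0.17 for *Gad1*, −0.27 to 0.020 for *Gad2* and −0.21 to 0.26 for *Slc32a1*, and between cerebellar cell types over −0.34 to 0.11, −0.49 to 0.037 and −0.025 to 0.18 in the same order. Line contrasts ran over −0.24 to 0.059 for *Gad2* and −0.045 to 0.023 for *Abat* in cerebrum, and −0.12 to 0.018 for *Gad1*, −0.30 to 0.080 for *Gad2* and −0.065 to 0.10 for *Slc32a1* in cerebellum. The log2 ratio of *Gad1* to *Gad2* differed by −0.11 to 0.077 in SST+, −0.20 to −0.091 in cerebellar Gad2+ and −0.070 to 0.072 in cerebellar vGluT2+ IPs.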
